A study of Saccharomyces cerevisiae with 8 samples.

Results

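The genes described here encode 47 proteins that assemble the large (60S) ribosomal subunit of budding yeast, Saccharomyces cerevisiae. They were chosen by name and function, with no measured value in the rule, but with earlier results of these data known. They are 47 of the 6600 open reading frames listed for each library. Their transcripts were measured by sequencing of total RNA from the strains ceg1-AA/xrn1D and ceg1-AA. The 4 groups were ceg1-AA/xrn1D with rapamycin (2 libraries), ceg1-AA/xrn1D with DMSO (1 library; its replicate 2 was not analysed here), ceg1-AA with rapamycin (2 libraries) and ceg1-AA with DMSO (2 libraries).

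Both strains are MATalpha and carry tor1-1, the disruption fpr1::NAT, RPL13AxFKB12::TRP and CEG1-FRB::HIS. This is the anchor-away system: rapamycin joins the FRB tag on Ceg1, the guanylyltransferase of the mRNA capping enzyme, to the FKBP12 tag on the ribosomal protein Rpl13a, which leaves the nucleus as part of new ribosomes and takes Ceg1 with it. The ceg1-AA/xrn1D strain also has XRN1, the gene of the cytoplasmic 5′ to 3′ exonuclease, disrupted with KAN; the genotype text of its replicate 2 samples gives XRN3 in that place. Cells grew on YPD at 30 °C and received DMSO or rapamycin at 1 µg/mL for 45 min. The anchor that carries Ceg1 out is itself a protein of the 60S subunit, in DMSO and rapamycin samples alike. None of the samples analysed here lacks the CEG1-FRB tag, so effects of rapamycin and of Ceg1 leaving the nucleus cannot be told apart here. Nothing in the labels says that replicates came from separate cultures, and p-values therefore measure only the spread between these samples.

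The 60S subunit is built from the 25S, 5.8S and 5S rRNAs and the large-subunit ribosomal proteins. Assembly starts on the nucleolar transcript of RNA polymerase I, where helicases, scaffold proteins and methyltransferases fold and trim the RNA; it goes on in the nucleoplasm, where GTPases and a large AAA-type ATPase remodel the particle, and ends in the cytoplasm, where export and shielding factors are stripped off. Yeast transcribes most of these factor genes as part of the ribosome biogenesis regulon, which responds to nutrients and TORC1 and carries a pair of known promoter motifs, PAC (polymerase A and C box) and RRPE (ribosomal RNA processing element).

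The 250 bases before the start codon were searched for both motifs. The motifs are already known from promoters of ribosome biogenesis genes, so a high share among the members could be foreseen. PAC was searched as GATGAG or CTCATC, and RRPE as AAAATTTT, which reads the same on both strands; overlapping matches were counted separately. PAC letters were present in 43 of 47 member promoters (91.5%), RRPE letters in 38 (80.9%) and both in 34 (72.3%). Every member had at least 1 of them in this form, whereas with longer forms of both motifs 8 members (17.0%) had neither, against 93.4% of all nuclear coding genes. Over all 6007 nuclear coding genes the shares were 17.0% for PAC, 8.66% for RRPE and 4.08% for both, and 78.4% had neither.

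The nearest matches of most members kept an order. In members with both motifs, the RRPE match nearest to the start codon lay farther upstream than the nearest PAC match in 31 of 34, by a median of 23 bases. The nearest PAC match began 53 to 205 bases before the start codon (median 115) in the members that had one, and the nearest RRPE match 85 to 221 bases (median 138). Of the members, 21 had more than 1 PAC match and 6 had more than 1 RRPE match. Taking the nearest match thus favours PAC as the closer motif. EBP2, LOC1, NOG1, NOP2, NSA2 and TIF6, counted among the 31, also had a PAC match beyond every RRPE match. The order was not counted over all genes with both motifs. IPI3, NSA1, RIX1 and SPB1 had no PAC letters in this stretch.

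The promoters of 8 members are given from 220 to 61 bases before the start codon, as in the R64 reference, 5′ to 3′ on the strand of the gene. The first 6 are genes with both motifs from the main assembly steps, all with the nearest RRPE match farther upstream. SPB1 is one of the strongly differing genes without PAC letters. TIF6 is the member that went the other way between strains although it has both motifs. The 3 members with the reverse order of nearest matches, NOP7, NOG2 and REI1, are not among the 8. Capitals mark the PAC and RRPE letters that lie whole within the stretch.
NOP2 (chrXIV:510320-510479, + strand): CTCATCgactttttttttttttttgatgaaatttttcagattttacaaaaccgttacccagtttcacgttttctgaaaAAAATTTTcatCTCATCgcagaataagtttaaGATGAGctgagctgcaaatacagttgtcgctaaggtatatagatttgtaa
DRS1 (chrXII:131509-131668, + strand): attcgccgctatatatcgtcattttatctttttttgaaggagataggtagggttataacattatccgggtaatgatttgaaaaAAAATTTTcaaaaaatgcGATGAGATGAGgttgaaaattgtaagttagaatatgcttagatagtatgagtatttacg
RPF2 (chrXI:592601-592760, - strand): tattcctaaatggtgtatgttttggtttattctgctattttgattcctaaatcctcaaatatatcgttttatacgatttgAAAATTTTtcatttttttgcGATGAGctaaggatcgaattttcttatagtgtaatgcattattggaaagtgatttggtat
MAK21 (chrIV:570429-570588, + strand): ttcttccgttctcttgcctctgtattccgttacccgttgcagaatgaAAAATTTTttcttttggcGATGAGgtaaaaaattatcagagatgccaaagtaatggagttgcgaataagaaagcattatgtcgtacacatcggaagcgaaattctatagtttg
NOC2 (chrXV:727292-727451, + strand): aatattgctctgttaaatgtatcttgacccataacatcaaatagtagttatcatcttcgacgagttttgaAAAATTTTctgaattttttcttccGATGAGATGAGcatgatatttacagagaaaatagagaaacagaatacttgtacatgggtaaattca
NMD3 (chrVIII:443608-443767, + strand): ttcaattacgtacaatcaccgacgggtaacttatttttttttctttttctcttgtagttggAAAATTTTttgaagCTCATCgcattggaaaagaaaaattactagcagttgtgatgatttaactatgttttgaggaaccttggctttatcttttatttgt
SPB1 (chrIII:31229-31388, + strand): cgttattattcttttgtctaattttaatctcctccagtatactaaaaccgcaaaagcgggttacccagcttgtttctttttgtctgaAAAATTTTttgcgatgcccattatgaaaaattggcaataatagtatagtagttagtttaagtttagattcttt
TIF6 (chrXVI:593130-593289, - strand): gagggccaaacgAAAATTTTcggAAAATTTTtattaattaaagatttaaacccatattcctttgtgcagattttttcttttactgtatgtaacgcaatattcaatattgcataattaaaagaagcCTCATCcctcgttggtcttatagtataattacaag

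In NOP2, DRS1, RPF2, MAK21 and NOC2 an RRPE match is followed by PAC letters within a short distance, and in DRS1 and NOC2 a pair of PAC matches overlaps. NMD3 has the same order, and in NMD3 as in NOP2 the PAC match next after RRPE reads CTCATC. In TIF6 both RRPE matches sit at the far end of the stretch, at 197 and 208 bases before the start codon, between a PAC match at 95 bases and another at 243 bases that lies beyond the stretch shown. A match to these letters is a description of the sequence and does not show that a factor binds there.

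**Figure D1:**
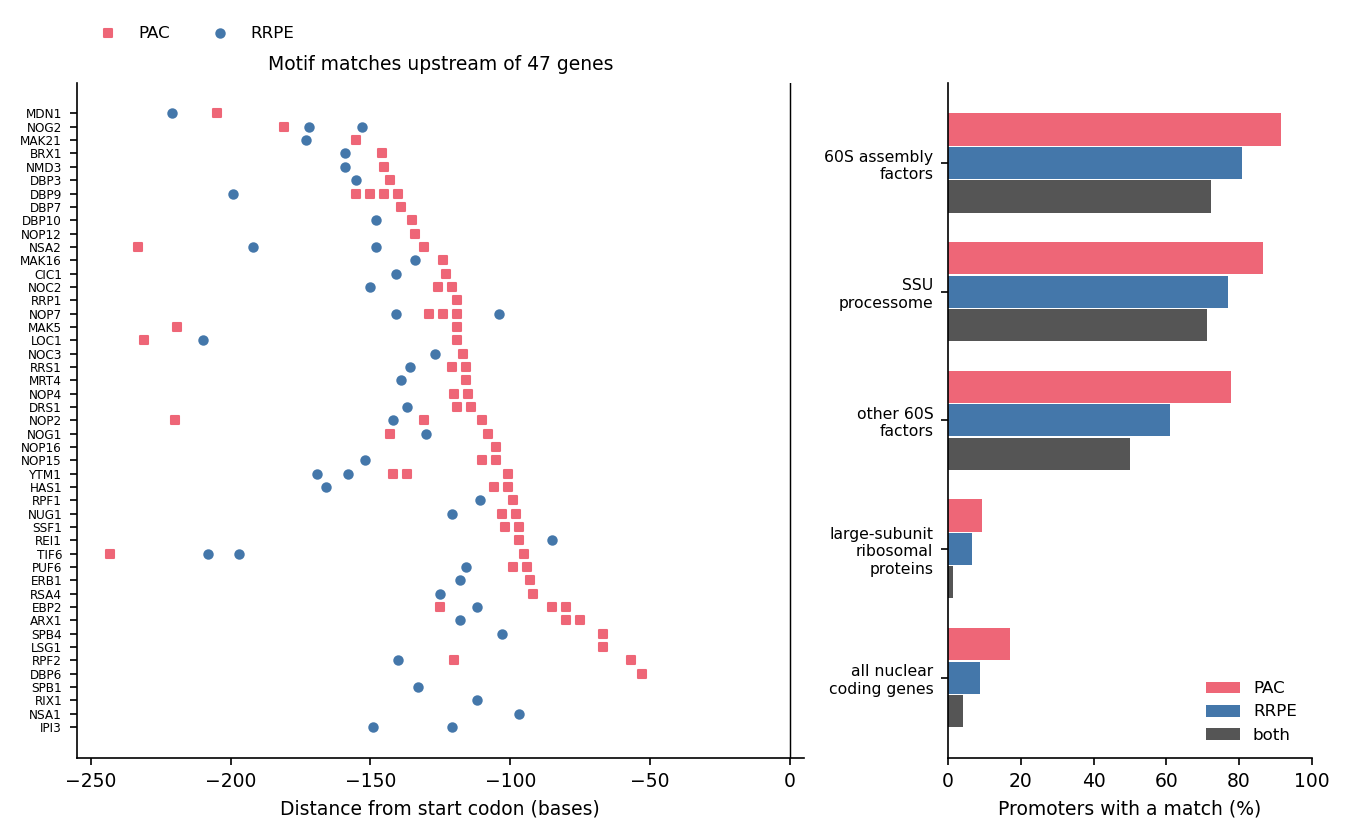
Left, the start of every PAC (squares) and RRPE (circles) match in bases from the start codon, 1 row for each of the 47 genes; right, bars give the percent of promoters with PAC, RRPE or both in 5 gene sets. The nearest PAC and RRPE matches have medians of 115 and 138 bases before the start codon, and 72.3% of the 60S assembly factors hold both, against 4.08% of all nuclear coding genes.

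The libraries differed in depth and make-up between strains and, within ceg1-AA, between treatments. Total counts were 2990340 to 3385761 in the 3 ceg1-AA/xrn1D libraries and 935651 to 1618638 in the 4 ceg1-AA libraries. XRN1 had 0 counts in each ceg1-AA/xrn1D library, against 338 to 794 in the ceg1-AA libraries. Transcripts of mitochondrial genes took 0.199% to 0.281% of the counts in ceg1-AA/xrn1D libraries and 1.13% to 3.37% in ceg1-AA libraries. The 3 MATalpha-specific genes looked at, MF(ALPHA)1, STE3 and SAG1, were detected in every library. Of the MATa-specific pheromone genes, MFA1 had 0 counts in all libraries and MFA2 had 1 count in 1 of them. The other MATa-specific genes looked at had more raw counts, not scaled for depth, in ceg1-AA/xrn1D than in ceg1-AA libraries. STE6 had 356 to 517 against 37 to 123, STE2 191 to 211 against 11 to 36, and BAR1 69 to 112 against 8 to 24. These raw counts contain the difference in depth between the strains. Within ceg1-AA they were higher with rapamycin: STE6 had 123 and 89 with rapamycin, against 37 and 51 with DMSO. STE2 had 36 and 20 against 11 and 14, and BAR1 20 and 24 against 9 and 8. Strain thus moves together with depth and mitochondrial share. The part of these and of the counts of STE6, STE2 and BAR1 in the strain differences was not tested. The lowest count of any member in any library was 66, so the members were well above the floor of 3 counts, and all 47 passed the filter on low counts.

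Each fold change below compares CPM, the count scaled to a fixed library total after TMM correction, and so is relative to the other transcripts of the library. RNA came from whole cultures, so fewer cells with a transcript and less of it per cell cannot be told apart. Tests are edgeR's quasi-likelihood test over the 5879 genes that passed the filter, with Benjamini-Hochberg adjusted p; a gene is called higher or lower at an adjusted p under 0.05, and errors of log2 fold changes are standard errors (SE).

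Levels between genes were compared as TPM, the deposited value per length and depth. The mean TPM over the 7 libraries was lowest for the helicase gene SPB4 (32.0), followed by DBP7 (33.2) and LSG1 (49.7), and highest for MRT4 (377), NOG2 (344), MDN1 (310) and NOG1 (262). All genes tested were also divided into 5 equal classes by mean log2 CPM, which, unlike TPM, is not corrected for gene length. Of the members, 18 lay in the highest class and 22 in the next. The middle class held 6, the class below it 1 and the lowest 0. Order differed between groups: MDN1 had the highest mean TPM in ceg1-AA/xrn1D with rapamycin (349) and DMSO (412 in the single library), NOG2 in ceg1-AA with rapamycin (527) and MRT4 in ceg1-AA with DMSO (411). The share of all counts that fell on members was 0.649% in replicate 1 and 0.736% in replicate 2 of ceg1-AA/xrn1D rapamycin, and 0.918% in ceg1-AA/xrn1D DMSO. The share was 1.36% and 1.40% in ceg1-AA rapamycin replicates 1 and 2, and 1.22% and 1.10% in ceg1-AA DMSO replicates 1 and 2.

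**Figure D2:**
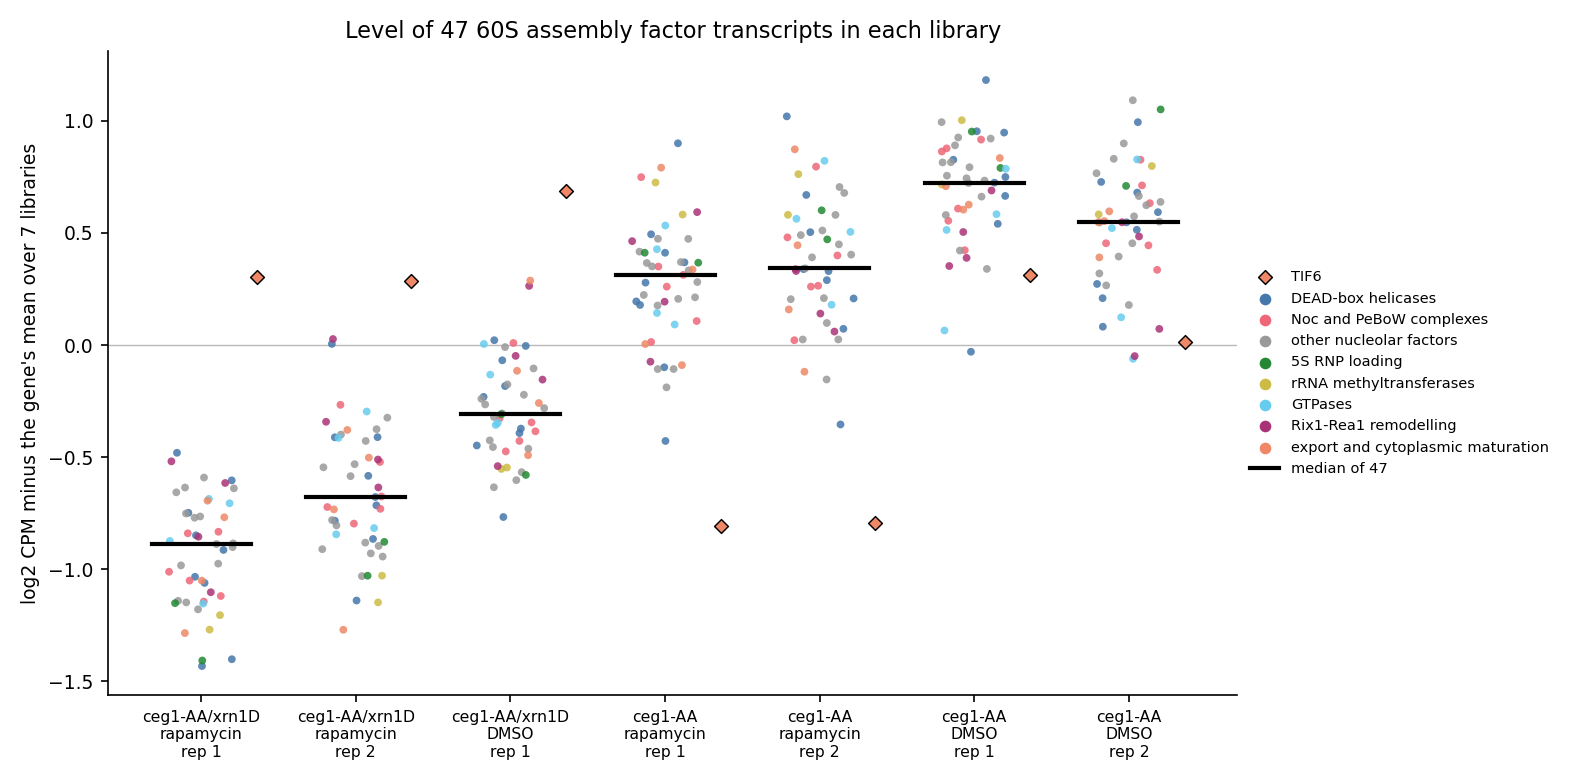
Each point is 1 of the 47 genes in 1 library, as log2 CPM minus that gene's mean over the 7 libraries, coloured by role; bars mark the median of the 47 and diamonds mark TIF6. The median lies at -0.89 and -0.68 in ceg1-AA/xrn1D rapamycin, -0.31 in ceg1-AA/xrn1D DMSO, 0.31 and 0.34 in ceg1-AA rapamycin, and 0.72 and 0.55 in ceg1-AA DMSO.

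The comparison of ceg1-AA/xrn1D with ceg1-AA under rapamycin asks how transcript levels differ between the strains without and with XRN1 while Ceg1 is being removed. Of the 47 members, 42 were lower in ceg1-AA/xrn1D with rapamycin, 1 was higher (TIF6) and 4 were not called (DBP6, HAS1, RSA4 and ARX1). Over all genes tested, 22.5% were called lower and 21.2% higher. The median log2 fold change of the members was -1.14, against 0.02 over all genes, and 29 of the lower members differed at least 2-fold. In 44 members every ceg1-AA/xrn1D rapamycin library lay below every ceg1-AA rapamycin library (36.8% of all genes did), in TIF6 every one lay above (38.5% of all genes), and in HAS1 and RSA4 the groups overlapped. Over the 4 pairs of libraries the members' median ranged between -1.31 and -0.94.

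Both rRNA methyltransferase genes were among the lowest 4 members. NOP2 (YNL061W), which makes 5-methylcytosine in the 25S rRNA, had 73.8 and 80.3 CPM in ceg1-AA/xrn1D rapamycin, against 269 and 268 CPM in ceg1-AA rapamycin. It was 3.48-fold lower (log2 fold change -1.80 ± 0.14, edgeR adjusted p 1.29e-05). SPB1 (YCL054W), a 2′-O-methyltransferase of the 25S rRNA, had 120 and 136 CPM in ceg1-AA/xrn1D rapamycin, against 461 and 473 CPM in ceg1-AA rapamycin, a log2 fold change of -1.86 ± 0.15 (edgeR adjusted p 1.12e-05). For both genes the replicates lay close together and the groups were far apart.

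Of the 9 DEAD-box helicase genes, whose products rearrange pre-rRNA, 7 were lower, with log2 fold changes of all 9 between -2.25 and -0.25. DRS1 (YLL008W) had the lowest fold change of all members: 62.8 and 77.1 CPM in ceg1-AA/xrn1D rapamycin, against 320 and 348 CPM in ceg1-AA rapamycin. This is 4.76-fold lower (log2 fold change -2.25 ± 0.16, edgeR adjusted p 6.25e-06). The helicases not called were DBP6 (YNR038W), at 90.3 and 127 CPM in ceg1-AA/xrn1D rapamycin and 145 and 146 CPM in ceg1-AA rapamycin, and HAS1 (YMR290C), at 76.6 and 109 CPM in ceg1-AA/xrn1D rapamycin and 108 and 113 CPM in ceg1-AA rapamycin. The DBP6 groups did not overlap but lay near each other (log2 fold change -0.42 ± 0.17, edgeR adjusted p 0.0723), and those of HAS1 overlapped (-0.25 ± 0.19, edgeR adjusted p 0.303).

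All 6 genes of the Noc and PeBoW complexes were lower. MAK21 (YDR060W), which encodes Noc1, the partner of Noc2 in early nucleolar particles, had 261 and 319 CPM in ceg1-AA/xrn1D rapamycin, against 655 and 696 CPM in ceg1-AA rapamycin (log2 fold change -1.22 ± 0.17, edgeR adjusted p 0.000257). NOC2 (YOR206W) had 211 and 262 CPM in ceg1-AA/xrn1D rapamycin, against 450 and 525 CPM in ceg1-AA rapamycin (-1.05 ± 0.16, edgeR adjusted p 0.000582). The yeast counterpart of the human PeBoW complex is made of Nop7, Erb1 and Ytm1 and is needed to process the 5′ end of 5.8S rRNA. Of its genes, ERB1 (YMR049C) differed by -1.26 ± 0.16, NOP7 (YGR103W) by -1.04 ± 0.17 and YTM1 (YOR272W) by -0.55 ± 0.19 (log2 fold changes; edgeR adjusted p 0.000166, 0.000666 and 0.0394). YTM1 had 71.8 and 107 CPM in ceg1-AA/xrn1D rapamycin, against 130 and 131 CPM in ceg1-AA rapamycin, so that its replicate 2 sat close to the other strain.

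All 15 of the other nucleolar factor genes were lower, with a median log2 fold change of -1.05 and a range between -1.59 (EBP2) and -0.51 (NSA1). SSF1, which has a close copy in SSF2, is among them. Of its 50-base stretches, 4.04% occur again elsewhere in the genome, and no other member had such a stretch. How far this affects the count of SSF1 was not measured. The genes that load the 5S RNP were both lower. RPF2 (YKR081C), whose product brings the 5S rRNA with Rpl5 and Rpl11 into the particle, had 39.8 and 52.0 CPM in ceg1-AA/xrn1D rapamycin, against 143 and 163 CPM in ceg1-AA rapamycin. It was 3.32-fold lower (log2 fold change -1.73 ± 0.17, edgeR adjusted p 4.04e-05), and its partner gene RRS1 differed by -1.45 ± 0.17 (edgeR adjusted p 0.000105).

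All 4 GTPase genes were lower, by unequal amounts. LSG1 (YGL099W), the cytoplasmic GTPase that releases Nmd3, had 38.4 and 47.8 CPM in ceg1-AA/xrn1D rapamycin, against 126 and 123 CPM in ceg1-AA rapamycin (log2 fold change -1.53 ± 0.17, edgeR adjusted p 8.28e-05). NOG1 (YPL093W), a nucleolar GTPase, had 296 and 388 CPM in ceg1-AA/xrn1D rapamycin, against 509 and 541 CPM in ceg1-AA rapamycin (-0.62 ± 0.19, edgeR adjusted p 0.0247). Of the 4 genes of Rix1-Rea1 remodelling, MDN1 (the AAA-type ATPase Rea1), RIX1 and IPI3 were lower. RSA4 (YCR072C), which encodes the substrate that Rea1 pulls on, was at 74.3 and 117 CPM in ceg1-AA/xrn1D rapamycin and 109 and 119 CPM in ceg1-AA rapamycin, and the groups overlapped (-0.25 ± 0.22, edgeR adjusted p 0.387).

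The export and cytoplasmic maturation genes ranged widely, between -2.13 (REI1) and 1.10 (TIF6) on the log2 scale. REI1 (YBR267W), whose product helps remove the export factor Arx1, had 46.3 and 46.8 CPM in ceg1-AA/xrn1D rapamycin, against 198 and 210 CPM in ceg1-AA rapamycin. It was 4.38-fold lower (log2 fold change -2.13 ± 0.15, edgeR adjusted p 6.25e-06); the reading frame SLM6 overlaps it on the other strand, and whether strand was used in counting is not given in the sources used here. NMD3 (YHR170W), the adaptor to the export receptor Crm1, had 142 and 178 CPM in ceg1-AA/xrn1D rapamycin, against 374 and 403 CPM in ceg1-AA rapamycin (-1.28 ± 0.16, edgeR adjusted p 0.000155). ARX1 was not called (-0.42 ± 0.16, edgeR adjusted p 0.0518). TIF6 (YPR016C), whose product sits on the subunit interface and keeps the 60S subunit from joining the 40S, had 194 and 192 CPM in ceg1-AA/xrn1D rapamycin, against 89.5 and 90.4 CPM in ceg1-AA rapamycin. It was 2.15-fold higher (log2 fold change 1.10 ± 0.15, edgeR adjusted p 0.000278), with replicates that nearly coincided in both groups.

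Genes outside the list but of the same or a neighbouring pathway were counted in the same comparison. Of 36 other 60S factor genes, 32 were lower and 0 higher (median log2 fold change -0.99). Of 52 genes of the small-subunit (SSU) processome, the nucleolar particle that makes the 40S subunit, 43 were lower and 0 higher (median -1.16). Of 74 large-subunit ribosomal protein genes tested, 37 were lower and 4 higher (median -0.45).

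**Figure D3:**
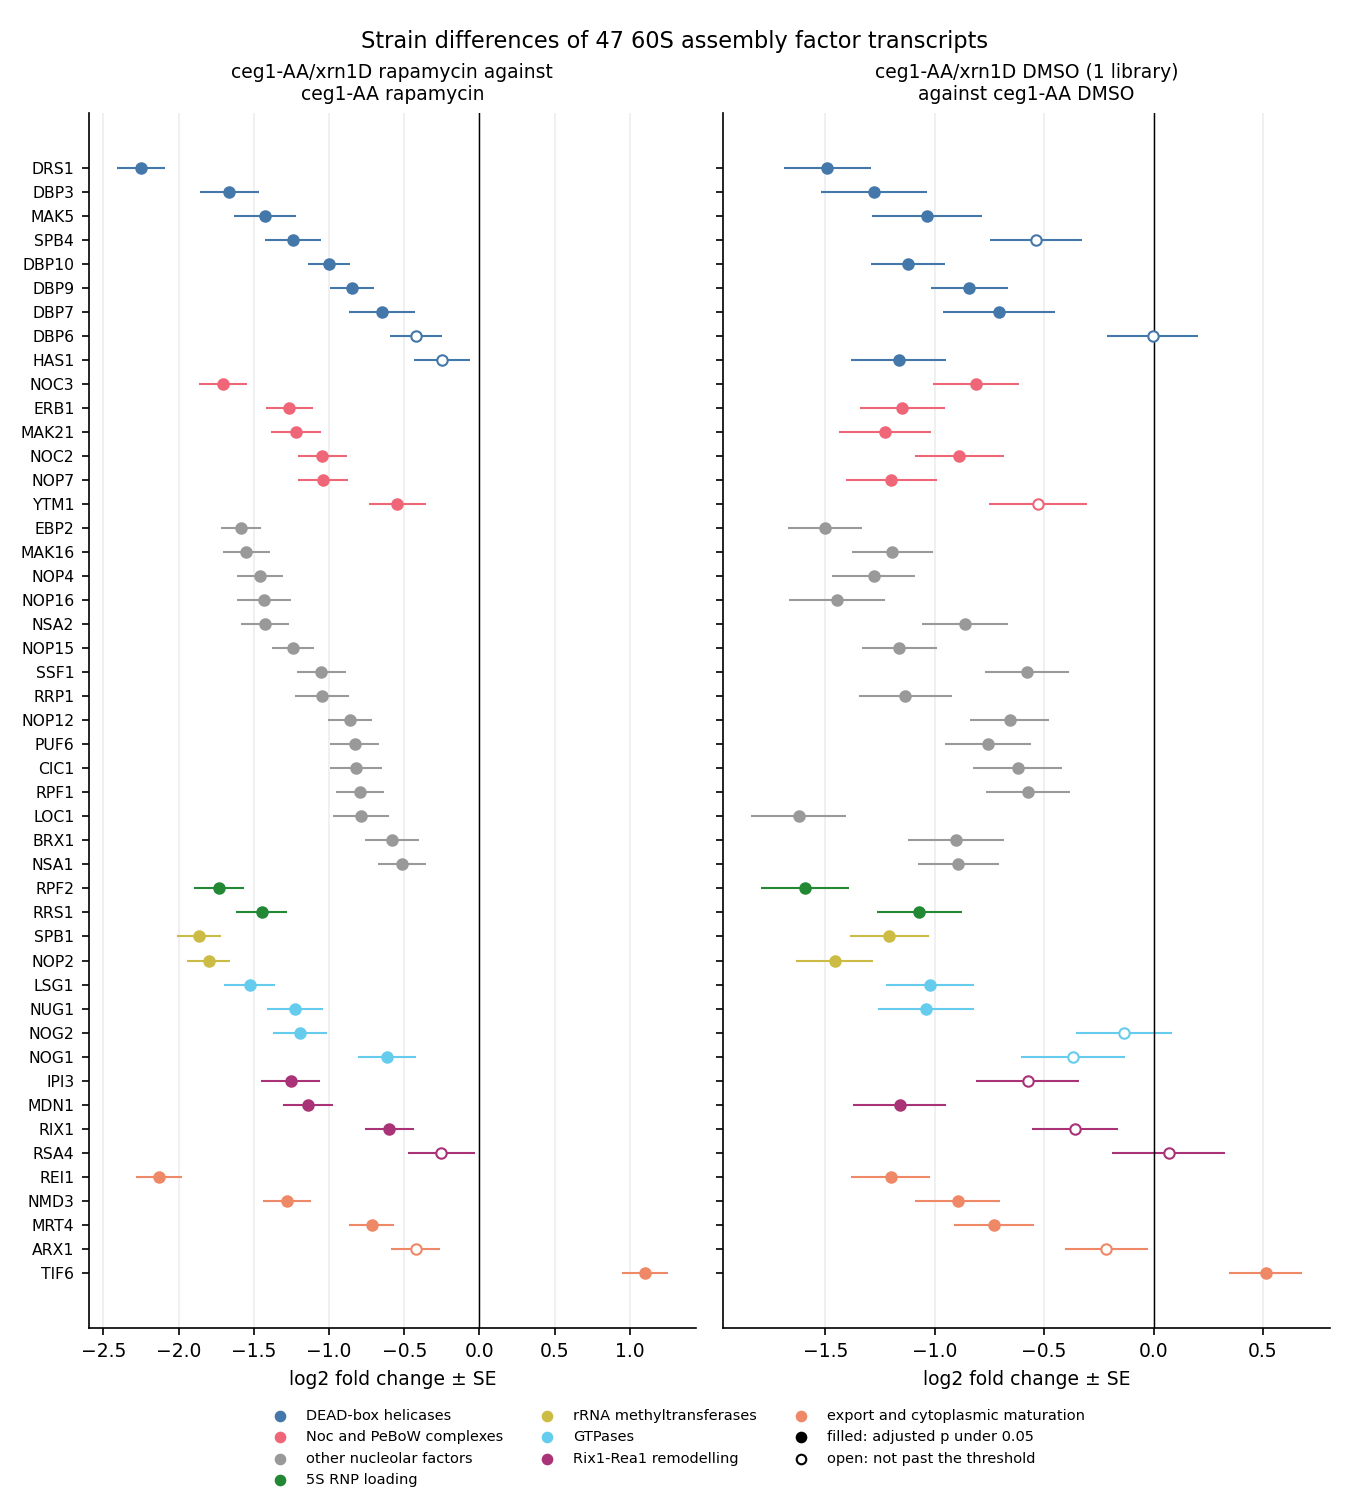
Log2 fold change with its SE for each of the 47 genes, ordered by role, for ceg1-AA/xrn1D rapamycin against ceg1-AA rapamycin (left) and ceg1-AA/xrn1D DMSO against ceg1-AA DMSO (right); filled points passed the adjusted p threshold. On the left 42 genes are called lower, with DRS1 at -2.25 and TIF6 alone to the right at 1.10; on the right 37 are called lower, with LOC1 at -1.62 and TIF6 at 0.51.

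The strains were also compared in DMSO, without rapamycin. The single ceg1-AA/xrn1D DMSO library was assumed to vary like the other groups. Of the 47 members, 37 were lower in ceg1-AA/xrn1D with DMSO, 1 was higher (TIF6) and 9 were not called, against 20.0% of all genes lower and 19.2% higher. The members' median log2 fold change was -0.90 (all genes 0.04) and they ranged between -1.62 and 0.51. The ceg1-AA/xrn1D library lay below both ceg1-AA DMSO libraries in 44 members (39.5% of all genes) and above both in 1 (44.1%). These counts depend on scaling: with total counts alone 20 members were lower and 2 higher (7.42% and 45.6% of all genes), and with limma on the deposited TPM 8 were lower and 7 higher (4.71% and 55.6% of all genes), while the median of all genes moved to 0.58 and 0.87. Relative to the median of all genes, the members' median lay between -1.05 and -0.86 over the alternatives. A change of scaling shifts all genes nearly alike and cannot test this value. Its range is that of the fits that left out a library.

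The lowest members in DMSO were LOC1, RPF2, EBP2 and DRS1. LOC1 (YFR001W), which encodes a nucleolar RNA-binding protein also known for localising ASH1 mRNA, had 61.3 CPM in ceg1-AA/xrn1D DMSO, against 183 and 196 CPM in ceg1-AA DMSO (log2 fold change -1.62 ± 0.22, edgeR adjusted p 0.000505). RPF2 had 71.4 CPM in ceg1-AA/xrn1D DMSO, against 208 and 223 CPM in ceg1-AA DMSO (-1.59 ± 0.20, edgeR adjusted p 0.000402). EBP2 (YKL172W), a nucleolar scaffold gene, had 134 CPM in ceg1-AA/xrn1D DMSO, against 378 and 380 CPM in ceg1-AA DMSO (-1.50 ± 0.17, edgeR adjusted p 0.000256). In each of these the single library was below the lower of the ceg1-AA libraries by a wide margin.

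DRS1 had 100.1 CPM in ceg1-AA/xrn1D DMSO, against 304 and 258 CPM in ceg1-AA DMSO (log2 fold change -1.49 ± 0.20). NOP2 had 122 CPM in ceg1-AA/xrn1D DMSO, against 360 and 312 CPM in ceg1-AA DMSO (-1.46 ± 0.18). MAK21 (-1.23 ± 0.21), NOP7 (-1.20 ± 0.21), ERB1 (-1.15 ± 0.19), LSG1 (-1.02 ± 0.20), NMD3 (-0.89 ± 0.19) and NOC2 (-0.89 ± 0.20) were lower as well by edgeR's test. The highest members were TIF6 and 3 that were not called: RSA4 (0.07 ± 0.26), DBP6 (-0.00 ± 0.21) and NOG2 (-0.14 ± 0.22). YTM1 (-0.53 ± 0.22, edgeR adjusted p 0.0821) and NOG1 (-0.37 ± 0.24, edgeR adjusted p 0.237) were not called either.

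TIF6 had 254 CPM in ceg1-AA/xrn1D DMSO, against 196 and 159 CPM in ceg1-AA DMSO, a log2 fold change of 0.51 ± 0.17 (edgeR adjusted p 0.0325). Its call was lost with relative log expression size factors, with a replicate block, with DESeq2 and in all but 1 of the fits that left out a library, and its adjusted p ranged between 0.000531 and 0.154 over the alternatives. By role, all 15 other nucleolar factors, both methyltransferases and both 5S loading genes were lower, as were 7 of 9 helicases and 5 of 6 Noc and PeBoW genes. Only 1 of 4 Rix1-Rea1 genes (MDN1) and 2 of 4 GTPase genes (NUG1 and LSG1) were. In the neighbouring lists, 23 of 36 other 60S factors (median -0.87), 34 of 52 SSU processome genes (-0.79) and 66 of 74 large-subunit ribosomal protein genes (-1.17) were lower.

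Rapamycin was compared with DMSO within ceg1-AA/xrn1D, which asks how levels differ with rapamycin and Ceg1 removal together in cells without XRN1. All 47 members had a negative log2 fold change, between -0.88 and -0.19 with a median of -0.52, against 0.00 over all genes. Both rapamycin libraries lay below the DMSO library in every one of the 47, as in 39.2% of all genes, and above it in 0 (39.3% of all genes). By edgeR's test with adjustment over all genes 0 members were called, against 0.034% of genes called lower and 0.034% called higher; 32 members (68.1%) had an unadjusted p under 0.05, against 14.9% of all genes, and DESeq2 called 1 member lower, against 0.39% of all genes. The lowest adjusted p of a member was 0.118 (REI1). In fits without ceg1-AA DMSO replicate 1 or without replicate 2, libraries that this comparison does not contain but that set the shared spread, 18 members were called lower each time (38.3%, against 3.20% and 3.15% of all genes).

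The rapamycin replicates also differed from each other across the members. The members' median was -0.65 for ceg1-AA/xrn1D rapamycin replicate 1 and -0.39 for replicate 2, each against the DMSO library, and between the replicates themselves it was -0.28 (replicate 1 minus replicate 2), with 44 of 47 lower in replicate 1. In ceg1-AA the members' median difference between replicates was -0.07 with rapamycin and 0.16 with DMSO. With 1 DMSO library, how far its members would vary together is not known from these data.

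The lowest members were SPB4, ARX1, REI1 and RRS1. SPB4 (YFL002C), a helicase gene of 60S assembly, had 26.1 and 32.8 CPM in ceg1-AA/xrn1D rapamycin, against 54.2 CPM in ceg1-AA/xrn1D DMSO (log2 fold change -0.88 ± 0.20, edgeR adjusted p 0.130). ARX1 had 204 and 255 CPM in ceg1-AA/xrn1D rapamycin, against 405 CPM in ceg1-AA/xrn1D DMSO (-0.82 ± 0.18, edgeR adjusted p 0.125). REI1 had 46.3 and 46.8 CPM in ceg1-AA/xrn1D rapamycin, against 80.9 CPM in ceg1-AA/xrn1D DMSO (-0.80 ± 0.17). In these 3 genes the rapamycin replicates were closer to each other than to the DMSO library.

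RRS1 differed by -0.71 ± 0.19, NOP2 by -0.67 ± 0.17, LSG1 by -0.65 ± 0.19, RPF2 by -0.63 ± 0.19, NMD3 by -0.63 ± 0.18 and ERB1 by -0.63 ± 0.18 (log2 fold changes). YTM1 (-0.54 ± 0.21), NOP7 (-0.51 ± 0.20), NOG1 (-0.48 ± 0.23), TIF6 (-0.39 ± 0.16), MAK21 (-0.39 ± 0.20) and NOC2 (-0.28 ± 0.19) lay nearer to 0. The values closest to 0 were those of LOC1 (-0.19 ± 0.21), MDN1 (-0.20 ± 0.20), RPF1 (-0.21 ± 0.18) and DBP6 (-0.24 ± 0.20). TIF6, which stood apart between strains, thus had the same sign as the other members here. The median log2 fold change was -0.45 for the other 60S factors, -0.49 for the SSU processome and -0.29 for the large-subunit ribosomal proteins, with 0 called in each.

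**Figure D4:**
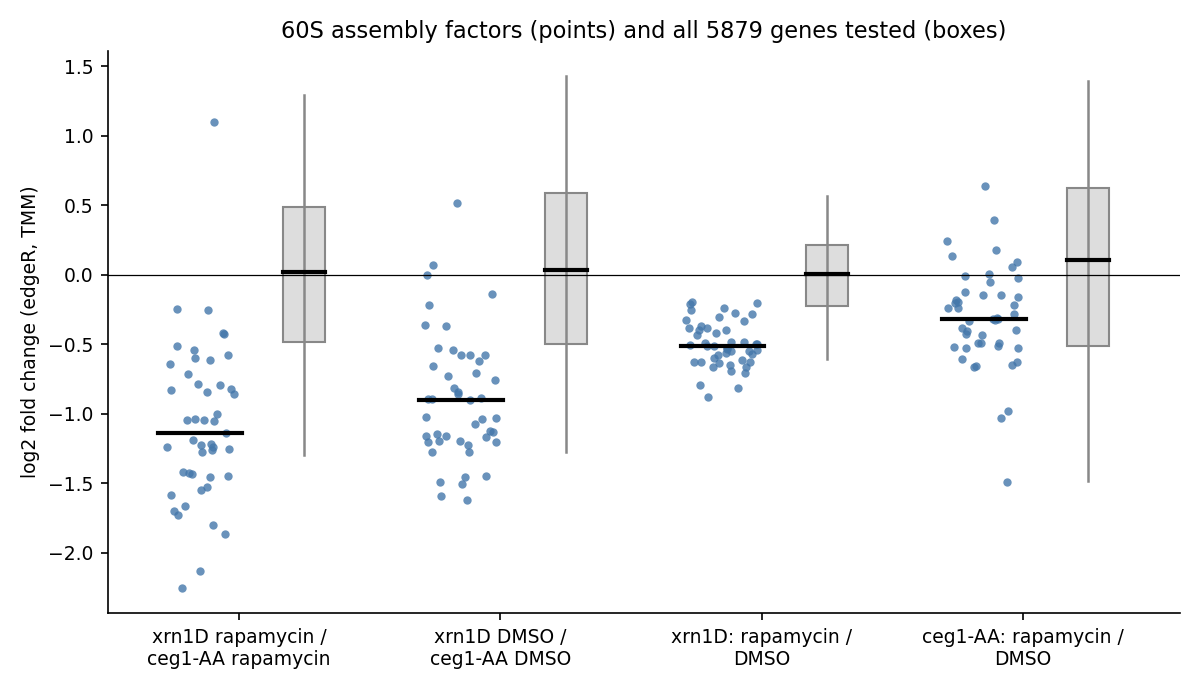
Log2 fold changes of the 47 genes (points, bar at their median) beside all 5879 genes tested (box from the 25th to the 75th percentile, line from the 5th to the 95th, bar at the median) in 4 comparisons; xrn1D stands for ceg1-AA/xrn1D. The members' medians are -1.14, -0.90, -0.52 and -0.32 from left to right, against 0.02, 0.04, 0.00 and 0.11 for all genes.

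Rapamycin was compared with DMSO within ceg1-AA, which asks the same in cells that have XRN1. Of the 47 members, 18 were lower with rapamycin, 1 was higher (NOG2) and 28 were not called, against 22.8% of all genes lower and 24.3% higher. The members' median log2 fold change was -0.32 (all genes 0.11), in a range between -1.49 and 0.63. In 27 members both rapamycin libraries lay below both DMSO libraries (32.6% of all genes) and in 5 they lay above (40.8%). The direction depends on scaling here: with total counts alone the median was 0.19, with 12 members higher and 3 lower (49.5% and 11.0% of all genes), and with limma on the deposited TPM 0.30, with 15 higher and 1 lower (54.9% and 9.80% of all genes). The median of all genes moved at the same time, to 0.62 and 0.72. Relative to it the members' median lay between -0.54 and -0.29 over the alternatives. That range is set by the fits that left out a library, since a change of scaling shifts all genes nearly alike.

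Make-up moved with treatment in this strain. Mitochondrial transcripts took 3.37% and 2.47% of counts in ceg1-AA rapamycin, against 1.41% and 1.13% in ceg1-AA DMSO, and the 10 most abundant genes took 6.91% and 6.83% in ceg1-AA rapamycin, against 10.9% and 11.5% in ceg1-AA DMSO. The TMM factors were 1.09 and 1.08 in ceg1-AA rapamycin, against 0.754 and 0.764 in ceg1-AA DMSO; the ceg1-AA/xrn1D libraries had factors between 1.11 and 1.19. The part of these in the result was not tested.

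Without ceg1-AA rapamycin replicate 1 only 5 members were called lower, and without ceg1-AA rapamycin replicate 2, 9 were, against 16.5% and 16.9% of all genes, so that the members' shares of 10.6% and 19.1% were below or near those of all genes. With upper-quartile scaling and without ceg1-AA DMSO replicate 1 it was 12 each (25.5%), against 20.4% and 21.5% of all genes. HAS1, whose product acts on both subunits, had the lowest fold change: 108 and 113 CPM in ceg1-AA rapamycin, against 330 and 290 CPM in ceg1-AA DMSO (log2 fold change -1.49 ± 0.19, edgeR adjusted p 0.000141). LOC1 had 80.0 and 105 CPM in ceg1-AA rapamycin, against 183 and 196 CPM in ceg1-AA DMSO (-1.03 ± 0.18, edgeR adjusted p 0.00122). TIF6 had 89.5 and 90.4 CPM in ceg1-AA rapamycin, against 196 and 159 CPM in ceg1-AA DMSO (-0.98 ± 0.16, edgeR adjusted p 0.000655). In these 3 the groups were well apart and each stayed below 0 under every scaling run.

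NOP7 had 403 and 448 CPM in ceg1-AA rapamycin, against 688 and 664 CPM in ceg1-AA DMSO (log2 fold change -0.67 ± 0.17, edgeR adjusted p 0.00753). ERB1 (-0.51 ± 0.16), YTM1 (-0.52 ± 0.20) and RPF2 (-0.49 ± 0.16) were lower by edgeR's test, but with total counts alone all of these, NOP7 included, lay between -0.15 and 0.02 and were not called. MAK21 (-0.40 ± 0.16), NOP2 (-0.33 ± 0.14), NMD3 (-0.24 ± 0.16), NOG1 (-0.24 ± 0.19), LSG1 (-0.15 ± 0.17) and NOC2 (-0.13 ± 0.16) were not called.

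NOG2 (YNR053C), which encodes a GTPase of the nucleoplasmic particle, was the highest member. It had 630 and 829 CPM in ceg1-AA rapamycin, against 490 and 449 CPM in ceg1-AA DMSO (log2 fold change 0.63 ± 0.18, edgeR adjusted p 0.0145). Without ceg1-AA rapamycin replicate 2, the higher of the pair, it was not called (0.42, edgeR adjusted p 0.153). NOG2 is the 1 member with an intron, and that intron holds the snoRNA gene SNR191. NOC3 (0.39 ± 0.16, edgeR adjusted p 0.0662), DRS1 (0.25 ± 0.15, edgeR adjusted p 0.214) and DBP6 (0.18 ± 0.18, edgeR adjusted p 0.452) were next and were not called.

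By role, the called members were 8 of 15 other nucleolar factors, 3 of 9 helicases, 3 of 6 Noc and PeBoW genes, 3 of 5 export and cytoplasmic maturation genes and 1 of 2 5S loading genes, all lower, and 1 of 4 GTPase genes, higher. No methyltransferase or Rix1-Rea1 gene was called by edgeR, with 1 methyltransferase gene and 0 Rix1-Rea1 genes at an unadjusted p under 0.05. In the neighbouring lists, 67 of 74 large-subunit ribosomal protein genes were lower and 1 higher (median -0.95), against 12 lower and 4 higher of 52 SSU processome genes (-0.13) and 6 lower and 2 higher of 36 other 60S factors (-0.20).

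**Figure D5:**
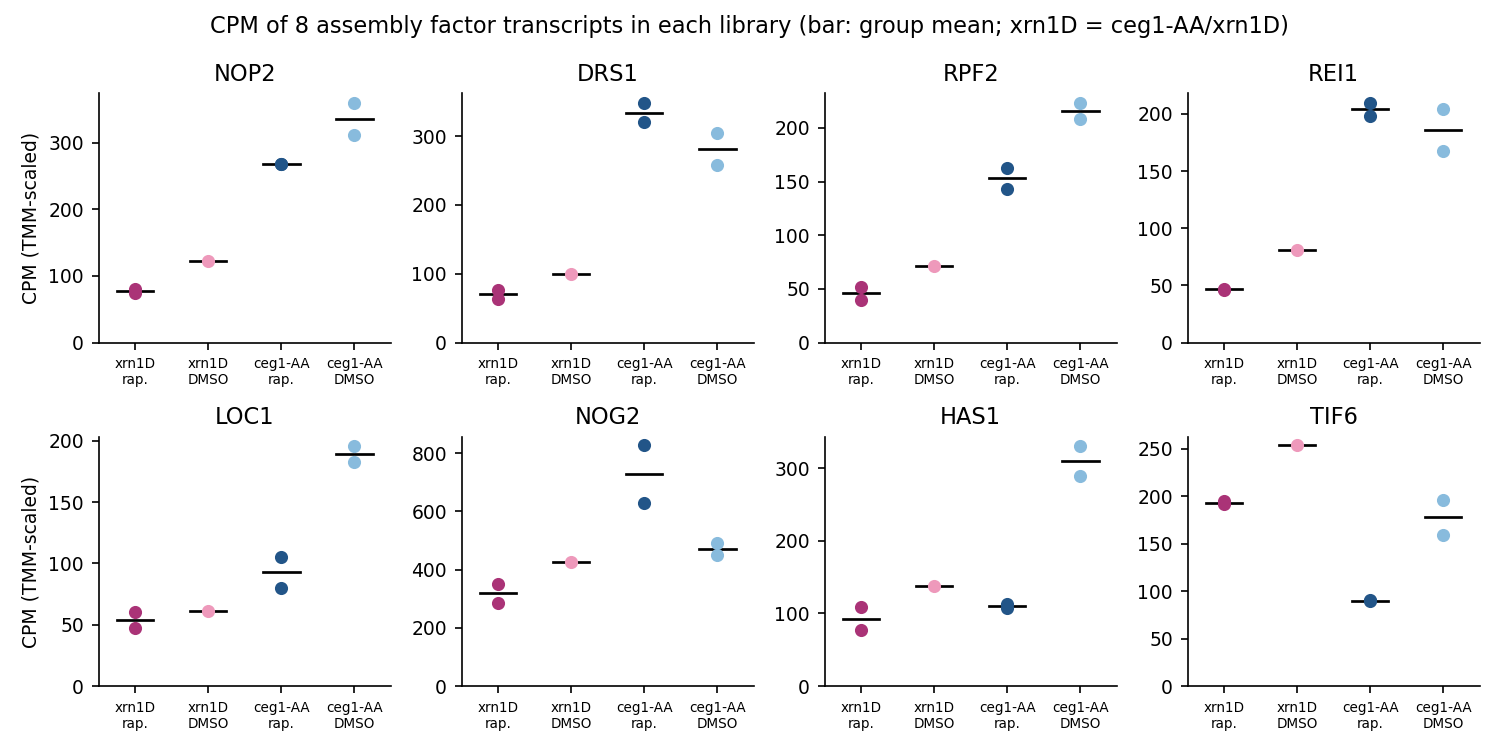
CPM of 8 genes in every library (points) with the group mean (bar), by group; axes start at 0. DRS1, NOP2, RPF2 and REI1 are low in ceg1-AA/xrn1D whichever the treatment, LOC1 and HAS1 are high in ceg1-AA DMSO alone, NOG2 is high in ceg1-AA rapamycin, and TIF6 is low in ceg1-AA rapamycin, at 89.5 and 90.4 CPM.

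The responses to rapamycin of the 2 strains were set against each other in the same model, with the same lone ceg1-AA/xrn1D DMSO library. The difference (response in ceg1-AA/xrn1D minus response in ceg1-AA) was called negative in 4 members and positive in 1, against 9.66% and 11.9% of all genes, shares no higher in the members than among all genes. Its median was -0.20 in members and -0.10 over all genes. The comparisons behind it share libraries, and for the called members each response is therefore given by itself.

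NOG2 differed by -0.42 ± 0.21 with rapamycin in ceg1-AA/xrn1D and by 0.63 ± 0.18 in ceg1-AA, a difference of -1.06 ± 0.28 (edgeR adjusted p 0.0234). REI1 differed by -0.80 ± 0.17 in ceg1-AA/xrn1D and by 0.13 ± 0.15 in ceg1-AA, a difference of -0.93 ± 0.23 (edgeR adjusted p 0.0178). The others called negative were NOC3 and DRS1. NOC3 differed by -0.50 ± 0.19 in ceg1-AA/xrn1D and by 0.39 ± 0.16 in ceg1-AA. Its difference was -0.89 ± 0.25 (edgeR adjusted p 0.0290). DRS1 differed by -0.52 ± 0.19 in ceg1-AA/xrn1D and by 0.25 ± 0.15 in ceg1-AA. Its difference was -0.76 ± 0.24 (edgeR adjusted p 0.0475). Neither response of NOC3 or DRS1 was called by itself. HAS1 differed by -0.58 ± 0.20 in ceg1-AA/xrn1D and by -1.49 ± 0.19 in ceg1-AA, a difference of 0.91 ± 0.28 (edgeR adjusted p 0.0416). Next to HAS1 at the upper end, LOC1 (0.84 ± 0.28), TIF6 (0.59 ± 0.23) and NSA1 (0.38 ± 0.24) were not called. Fits that left out 1 library called between 0 and 8 members negative and between 0 and 3 positive; 0 were called negative when either ceg1-AA rapamycin replicate 2 or ceg1-AA/xrn1D rapamycin replicate 1 was left out.

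The promoter letters were set beside these fold changes over all genes. Under rapamycin, 160 of 243 tested genes with both motifs were lower in ceg1-AA/xrn1D than in ceg1-AA (65.8%, median log2 fold change -0.86), against 31.3% of genes with PAC alone (median -0.13), 37.5% with RRPE alone (-0.16) and 17.7% of 4320 with neither (0.10). Leaving the 47 members out, 130 of 209 genes with both motifs were lower (62.2%, median -0.84). Other ribosome biogenesis genes were kept in that count. Both motifs were present in 37 of 52 SSU processome promoters and in 18 of 36 promoters of other 60S factors. The share without these genes was not computed. Among the members, the medians were -1.17 in the 34 with both motifs, -1.05 in the 9 with PAC alone and -0.93 in the 4 with RRPE alone. TIF6 has both motifs and was higher. Between the strains in DMSO, 57.6% of genes with both motifs were lower, against 21.1% with PAC alone, 36.4% with RRPE alone and 16.6% with neither. With rapamycin in ceg1-AA the order was another: 30.9% of genes with both motifs were lower, against 22.4% with PAC alone, 37.5% with RRPE alone and 22.1% with neither. With rapamycin in ceg1-AA/xrn1D, where almost no gene was called, the median log2 fold changes were -0.41 with both, -0.06 with PAC alone, -0.20 with RRPE alone and 0.04 with neither.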

How the data were processed

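The labels' protocols give acid phenol/chloroform for total RNA and an NEB Ultra II kit for the libraries. The submitters' processing notes name FastQC 0.11.5, HISAT2 2.1.1, SAMtools 1.15.1, DESeq2 and the builds R64 and sacCer3, without their roles; the counting program and its use of strand are not given in the sources used here. The authors deposited, for each of 7 libraries, whole-number read counts per open reading frame, not normalized, and TPM values, which equal the count divided by length and a bias factor, rescaled, within 0.00028% for values above 1 TPM. All 47 deposited lengths equal the R64 coding lengths.

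The test on counts was that of edgeR 4.0.16 (R 4.3.3): filterByExpr (5879 genes), TMM scaling, 1 coefficient per group over 7 libraries, quasi-likelihood tests and Benjamini-Hochberg adjustment. Log2 CPM used a prior count of 2. SE is the log2 fold change divided by the square root of F. On simulated data for rapamycin against DMSO in ceg1-AA, with 5812 genes, the test called, with the right sign, 126 of 199 genes given a log2 change of 1 (63.3%). It called 7 genes given none. Few genes were changed there, evenly up and down, whereas 47.1% of all genes were called in the real comparison. The simulation therefore does not measure errors that come from scaling. Motifs were read from the R64 RefSeq genome; no transcription start sites were used.

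Groups and replicate numbers come from the sample titles. The members and the gene lists were chosen with earlier results of these data known. Named genes were 11 examples in the selection rule (NOP2, NOP7, NOG1, MAK21, NOC2, ERB1, YTM1, RPF2, TIF6, NMD3, LSG1) and the 4 lowest and 4 highest members of each comparison; other names complete a count or a role, or mark a measured exception, and were chosen after their values were seen. Alternatives were 3 other scalings, no filter, a replicate block, single libraries left out, the compared groups alone, DESeq2 1.42.0, and limma 3.58.1 on log2(TPM + 1). Reads from PCR carry no molecular identifiers, so the floor of 3 counts covers counting error only.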

Additional observations from a re-analysis of the deposited data

Results flagged for a closer look

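In 5 of the 47 genes the response to rapamycin differed between the strains by edgeR's interaction test (10.6%), a smaller share than the 21.5% of all genes. The values are log2 differences, the response in ceg1-AA/xrn1D minus that in ceg1-AA, and all rest on the single ceg1-AA/xrn1D DMSO library. NOG2 differed by -1.06 ± 0.28 (SE; edgeR adjusted p 0.0234), REI1 by -0.93 ± 0.23 (edgeR adjusted p 0.0178), NOC3 by -0.89 ± 0.25 (edgeR adjusted p 0.0290), DRS1 by -0.76 ± 0.24 (edgeR adjusted p 0.0475) and HAS1 by 0.91 ± 0.28 (edgeR adjusted p 0.0416). NOG2, NOC3 and DRS1 had both ceg1-AA/xrn1D rapamycin libraries below their DMSO library and both ceg1-AA rapamycin libraries above theirs, while HAS1 was lower with rapamycin in every library of both strains. None of the 5 was called when ceg1-AA rapamycin replicate 2 was left out.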

How the results depend on the processing

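Strain differences under rapamycin kept their direction for the members as a list: 35 to 44 were called lower and 1 higher under every alternative, with a median log2 fold change of -0.78 with limma on the deposited TPM and between -1.24 and -0.99 otherwise. Other comparisons moved with scaling, because it moves the median of all genes. Relative to that median the members' median lay between -1.24 and -1.01 (strains, rapamycin), -1.05 and -0.86 (strains, DMSO), -0.66 and -0.39 (rapamycin, ceg1-AA/xrn1D) and -0.54 and -0.29 (rapamycin, ceg1-AA). For the difference of responses it lay between -0.24 and 0.03. Each range is that of the fits without 1 library. A change of scaling shifts all genes nearly alike and cannot test these values. The cause of other moves was not tested.

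For rapamycin against DMSO in ceg1-AA (18 lower, 1 higher, median -0.32), upper-quartile scaling gave 2 higher and a median of -0.23, total counts alone 12 higher, 3 lower and 0.19, and limma on TPM 15 higher, 1 lower and 0.30. With 1 library left out, 5 to 21 were lower, 0 to 2 higher and the median lay between -0.41 and -0.19. Within ceg1-AA/xrn1D (0 called), DESeq2 called 1 lower, and fits without 1 library called 0 to 18 lower. For the strains in DMSO (37 lower, 1 higher, median -0.90), upper-quartile scaling gave a median of -0.75, total counts alone 20 lower, 2 higher and -0.36, limma on TPM 8 lower, 7 higher and -0.082, and relative log expression factors, the replicate block and DESeq2 each 0 higher; without 1 library 0 to 1 were higher. For the difference of responses (4 lower, 1 higher, median -0.20), relative log expression factors gave 2 higher, upper-quartile scaling 0 higher, total counts alone 21 lower, 0 higher and -0.66, the replicate block 0 higher, DESeq2 1 lower and 0 higher, and limma on TPM 16 lower, 0 higher and -0.77; without 1 library 0 to 8 were lower and 0 to 3 higher. The share of member promoters with both motifs was 27.7% when both motifs were searched in longer forms (1.05% of all nuclear coding genes), against 72.3% (4.08%).

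Of the named genes, these changed sign (log2 fold change). For rapamycin against DMSO in ceg1-AA with total counts alone: NOP2 0.19, NOG1 0.28, MAK21 0.12, NOC2 0.39, ERB1 0.0027, RPF2 0.019, NMD3 0.27 and LSG1 0.37. With limma on TPM: NOP2 0.32, NOG1 0.42, MAK21 0.30, NOC2 0.52, ERB1 0.15, YTM1 0.10, RPF2 0.10, NMD3 0.38 and LSG1 0.50. For the strains in DMSO with total counts alone: NOG1 0.18, YTM1 0.016, DBP6 0.54 and NOG2 0.41. With limma on TPM: NOG1 0.57, NOC2 0.069, YTM1 0.28, DBP6 0.89 and NOG2 0.68. With upper-quartile scaling DBP6 was at 0.15 and NOG2 at 0.014, and DBP6 was at 0.0035 with no filter and 0.11 with the replicate block. Under rapamycin between strains HAS1 was at 0.012 with limma on TPM. In the difference of responses NSA1 was at -0.078 with total counts alone and -0.16 with limma on TPM. With 1 library left out, NOG1 lay between -0.45 and 0.0097 (rapamycin, ceg1-AA), RSA4 between -0.62 and 0.032 (strains, rapamycin) and between -0.13 and 0.31 (strains, DMSO), and DBP6 between -0.063 and 0.048 (strains, DMSO). Besides these 37 sign changes, 73 values of named genes lost a call, 50 gained one and 921 kept direction and side of the threshold.

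Replicate numbers did not pair the samples: deviations of same-numbered libraries correlated at 0.13 (ceg1-AA DMSO and rapamycin), -0.15 (ceg1-AA DMSO and ceg1-AA/xrn1D rapamycin) and -0.03 (both rapamycin groups) across genes. With a replicate block 41 members were lower between strains under rapamycin, 33 in DMSO and 16 in ceg1-AA with rapamycin, against 42, 37 and 18 without it. Leaving out the ceg1-AA/xrn1D DMSO library gives no value for the 3 comparisons that use it. Totals were 935651 and 962326 counts in ceg1-AA rapamycin, with 2 libraries a group at most, and changes smaller than 1 on the log2 scale were not simulated.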
